A study of Mus musculus with 10 samples.

Results

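The genes of DNA damage repair were taken from an RNA sequencing series of mouse liver by their symbols. A gene was included where its symbol began with Fanc, Rad, Xrcc, Brca, Msh, Mlh, Ercc or Parp followed by the letter or digit of a family member, or was Blm, Atm, Atr, Chek1, Chek2 or Exo1. This rule found 69 genes among the 16697 gene entries of the table. Its wording uses no measured value, but the genes and pathway lists were chosen with earlier results of these data known. The libraries were those of wild-type normal liver (NL, n = 4), of liver tumours induced with c-MYC and the empty vector pT3 (c-MYC, n = 3), and of liver tumours induced with c-MYC and FOXO1AAA in the same vector (c-MYC/FOXO1AAA, n = 3). FOXO1AAA is a mutant of FOXO1, a transcription factor, that is active all the time. Plasmids were delivered by hydrodynamic tail vein injection, which brings DNA into hepatocytes, and FOXO1AAA was driven by the EF1α promoter of the vector. NL is given as wild type, and mice with tumours were killed when these were advanced or at the end of the study. The labels give the strain as C57BL/6 while the RNA protocol and the methods give FVB/N, and the ages of the mice are not given. The study used both sexes, and the sex behind each library is not given. A legend of the study adds MCL1 to the control plasmids where the labels and methods do not. Mouse Mcl1 was at 185 to 209.7 FPKM in NL, 235 to 251 FPKM in c-MYC and 155 to 163 FPKM in c-MYC/FOXO1AAA. Nothing in the labels says that the libraries of a group came from separate animals, so the p-values measure the spread between these libraries.

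The libraries held 13123719 to 20547746 reads in listed genes, and replicates of a group correlated with r of 0.9707 to 0.9839 across genes over 12 pairs. Mouse Foxo1 was at 6.69 to 7.87 FPKM in NL, 5.17 to 6.46 FPKM in c-MYC and 70.1 to 95.6 FPKM in c-MYC/FOXO1AAA. Mouse Myc was at 4.17 to 22.2 FPKM in NL, 0.561 to 1.05 FPKM in c-MYC and 0.876 to 1.11 FPKM in c-MYC/FOXO1AAA. The species of the c-MYC transgene is not given in the sources used here, so this gene does not check the label. Levels are FPKM, fragments scaled by the length of the gene and the size of the library. They were deposited on the log2 scale with a small prior count added, so that a gene without a read has a value above 0 and the changes of low genes are understated. Values of a gene are listed in the order of the replicates, NL 1 to 4 and 1 to 3 in each tumour group, and errors of log2 fold changes are SE. A gene was called higher or lower where the limma treat test found a change above 1.5-fold with a Benjamini-Hochberg adjusted p under 0.05 over 14017 genes.

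DNA is repaired by pathways that are each specialised for a kind of lesion. Homologous recombination copies the sister chromatid across a double-strand break, with the help of BRCA1 and BRCA2, and the Fanconi anaemia pathway opens crosslinks at stalled replication forks. Non-homologous end joining rejoins broken ends directly, starting from the Ku heterodimer that Xrcc5 and Xrcc6 encode. Mismatch repair corrects copying errors through proteins of the MSH family and their partners, nucleotide excision repair removes bulky lesions through the ERCC proteins, and single-strand breaks are handled by PARP1, PARP2 and XRCC1. The kinases ATM and ATR detect damage and signal through CHEK2 and CHEK1. Hepatocytes of the adult liver are mostly quiescent, and homologous recombination is a pathway of cells that replicate their DNA.

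Many repair genes were at a higher level in both kinds of tumour than in normal liver, and few were called between the tumours at the 1.5-fold threshold. Of the 69 genes, 68 passed the filter on low values, which asked for 1 FPKM in at least 3 libraries. The exception was Parp8, at 0.223, 0.433, 0.0745 and 0.303 FPKM in NL, 0.279, 0.291 and 0.462 FPKM in c-MYC and 0.437, 1.42 and 0.435 FPKM in c-MYC/FOXO1AAA. Of the 68 genes that passed, 12 did so without an NL library at 1 FPKM, and 1, Parp14, without a tumour library at that level. The 12 were Brca2, Chek1, Ercc6l, Exo1, Fancb, Fancd2, Fanci, Fancm, Rad18, Rad51c, Rad54b and Rad54l. All of these except Rad51c are among the genes called higher in c-MYC over NL, so the counts below partly rest on genes that passed through tumour libraries.

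In c-MYC versus NL, 36 of the 68 genes were higher, 7 were lower and 25 were not called, beside 24.5% of all tested genes called higher and 23.6% called lower. The median log2 fold change was 1.19 over the repair genes and 0.08 over all genes tested. In c-MYC/FOXO1AAA versus NL, 35 genes were higher and 6 were lower, beside 31.2% and 26.6% of all genes, with a median of 1.08 for the repair genes and 0.21 for all. These comparisons share the NL libraries. In c-MYC/FOXO1AAA versus c-MYC, which uses the c-MYC libraries again, 3 genes were higher and 1 was lower, beside 15.9% and 12.7% of all genes, and the median was -0.11 for the repair genes and 0.03 for all. In each tumour group over NL, 31 genes were called higher that were not called between the tumours. Of all genes called in c-MYC, 51.0% were higher. Rescaling the libraries to an equal FPKM total moved the median of all genes to 1.01 in c-MYC versus NL and to 1.31 in c-MYC/FOXO1AAA versus NL. Such a scaling shifts every gene of a library alike, so the gap of 1.11 and 0.87 between the medians of the repair genes and of all genes could not change with it. Where the gap could change, its lowest values were 0.91 in c-MYC and 0.57 in c-MYC/FOXO1AAA, both with a pseudocount of 1. With an equal FPKM total 58 genes rose and 6 fell in c-MYC, beside 50.4% and 13.5% of all genes, and 78.8% of all called genes were higher. In c-MYC/FOXO1AAA 53 rose and 4 fell with that scaling, beside 58.0% and 15.0% of all genes.

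**Figure D1:**
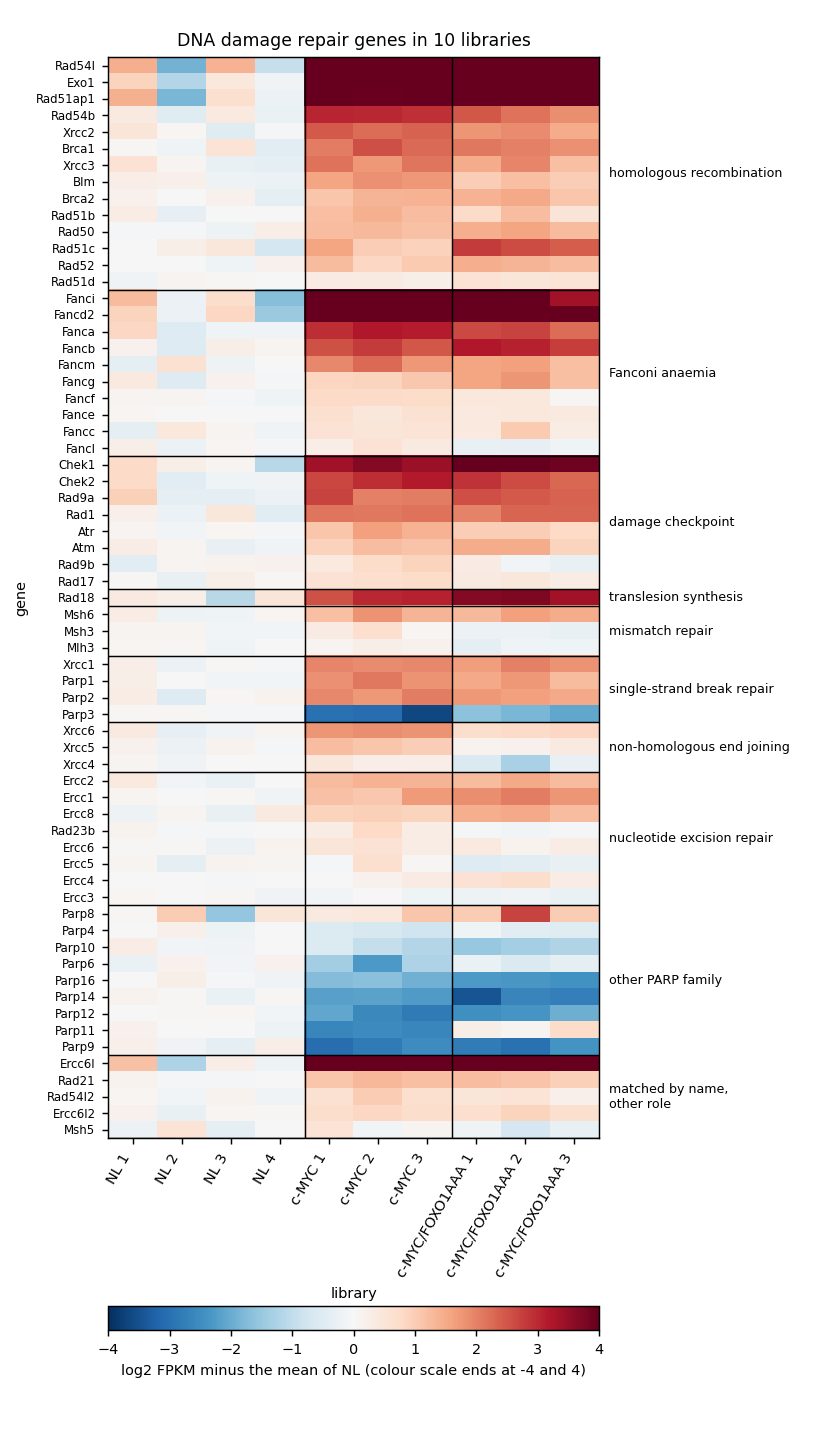
Level of 65 of the 69 genes (vertical axis, grouped by pathway) in each of the 10 libraries (horizontal axis), as log2 FPKM minus the mean of the NL libraries, with red for higher and blue for lower values. The 14 homologous recombination genes at the top are red in the tumour columns, and most of the lower block of PARP genes is blue there. The exceptions are Parp8 in the columns of both tumour groups and Parp11 in the c-MYC/FOXO1AAA columns.

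Marker genes of dividing cells moved with the same comparisons. The summed level of 10 proliferation markers, among them Mki67 and Top2a, was 6.96 to 42.1 FPKM in NL, 472 to 556 FPKM in c-MYC and 349 to 382 FPKM in c-MYC/FOXO1AAA, and all 10 were called higher in both tumour groups over NL and none between the tumours. NL 1 had the highest sum of the NL libraries, and it also held the highest NL level for 27 of the 36 genes called higher in c-MYC. The share of all genes with their highest NL level in NL 1 was not counted. NL 1 also had the highest NL sum of 5 hepatocyte markers (80564 FPKM) and of the 9 nucleotide excision repair genes (127 FPKM). The sums of 5 macrophage markers and of the other PARP genes were highest in NL 4 (301 FPKM) and NL 2 (102 FPKM). NL 1 was scaled by 0.649 and the other NL libraries by 0.682 to 0.684. Without NL 1, 38 genes were higher and 7 were lower in c-MYC versus NL. How far the proliferation markers account for the difference was not tested.

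Cell type markers moved as well. The sum of 5 hepatocyte markers was 72742 to 80564 FPKM in NL, 3225 to 5077 FPKM in c-MYC and 802 to 1453 FPKM in c-MYC/FOXO1AAA, and Hnf4a, which specifies hepatocytes, was at 164 to 197 FPKM, 83.7 to 112 FPKM and 4.67 to 11.1 FPKM in the same order. The 5 macrophage markers summed to 172 to 301 FPKM in NL, 42.9 to 54.6 FPKM in c-MYC and 39.6 to 65.3 FPKM in c-MYC/FOXO1AAA. For 5 endothelial markers the sums were 41.4 to 56.3, 6.61 to 11.2 and 4.61 to 8.14 FPKM in the same order. The 5 stellate cell or fibroblast markers summed to 14.6 to 16.9 FPKM in NL, 8.86 to 26.1 FPKM in c-MYC and 134 to 176 FPKM in c-MYC/FOXO1AAA, while the 4 biliary markers summed to 2.36 to 4.63, 15.4 to 30.8 and 4.72 to 11.9 FPKM. The 1 T cell marker in the table, Cd4, was at 0.795 to 1.29 FPKM in NL and 0.208 to 0.530 FPKM in c-MYC/FOXO1AAA, and the 3 B cell markers summed to 0.611 to 2.16 FPKM in NL, 0.641 to 1.16 FPKM in c-MYC and 7.72 to 12.3 FPKM in c-MYC/FOXO1AAA. Over NL, 4 of 5 hepatocyte, 2 of 5 macrophage, 3 of 4 tested endothelial and 2 of 5 stellate markers fell in c-MYC, while 5, 3, 3 and 1 fell in c-MYC/FOXO1AAA. In c-MYC, 1 macrophage, 1 stellate and 2 of 3 tested biliary markers rose, and in c-MYC/FOXO1AAA 4 of 5 stellate, 1 macrophage and 1 of 2 tested B cell markers rose and Cd4 fell. Between the tumours 4 hepatocyte markers, 1 biliary marker and Cd4 fell, and 3 stellate markers and 1 each of the macrophage, biliary and B cell markers rose. In tissue of mixed cells, fewer cells of a type and less RNA per cell cannot be told apart, and the part of these markers in the results was not tested.

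The promoters of the repair genes, called or not, were searched for the core letters of the E2F motif, through which cell cycle genes are regulated. RefSeq promoters of GRCm38.p6, from 250 bases before to 50 bases after the start of the gene, were matched for 51 of the 69 genes. TTCCCGC or TTGGCGC, on either strand, occurred in 20 of the 51 genes (39.2%), beside 13.8% of the 10145 tested genes with a window and 7.79% of all 27025 RefSeq genes. It occurred in 12 of 25 genes higher in c-MYC (48%), in 0 of 5 lower genes and in 8 of 20 genes not called (40%), beside 17.6% of all higher and 9.85% of all lower genes. The E-box CACGTG, the element that MYC binds, occurred in 6 of the 51 genes (11.8%), beside 11.8% of the tested genes. The FOXO element TGTTTAC, on either strand, occurred in 1 gene, Brca2 (1.96%), beside 3.33% of the tested genes. A match is a string of letters and not a measured binding site, and the difference between these shares was not tested.

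The windows around the E2F letters are printed on the strand of the gene, with the matched letters in capitals, to show the match in genes that were higher in c-MYC and in genes that were not called. Brca1 (chr11:101551917-101551945), Brca2 (chr5:150522442-150522470), Chek2 (chr5:110839820-110839848), Fanci (chr7:79392345-79392373), Msh6 (chr17:87975055-87975083), Rad51ap1 (chr6:126939558-126939586) and Xrcc6 (chr15:82016312-82016340) were called higher. Atm (chr9:53536639-53536667), Fancg (chr4:43010335-43010363), Rad51c (chr11:87404942-87404970) and Xrcc4 (chr13:90089691-90089719) were not called. Both orientations of the letters are present, and the first base of a match lies between 168 bases before the start, in Brca2, and position 22 from it, in Brca1.
Brca1: gctagcgctagGCGCCAAgcggccggttt
Brca2: tttaggccacaGCGGGAAacagacacaca
Chek2: cgggattagccGCGGGAAaccaagacgtc
Fanci: cgtggagtagaGCGGGAAttttggaagga
Msh6: tcctcccgactTTCCCGCcagcggcggcc
Rad51ap1: tctggttttcgGCGGGAAttgaaaccgcc
Xrcc6: agggggtggaaGCGGGAAatgcgagtggg
Atm: tagagccggaaGCGGGAAggcgtgcgtac
Fancg: ttcttttcagtTTCCCGCggaaccgtctc
Rad51c: cccccgcgaggGCGGGAAaagcaaggggt
Xrcc4: gcccgctgtgcTTCCCGCtcgctccagcg

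Homologous recombination was the pathway with the most genes higher in the tumours. Of its 15 genes, 13 were higher in c-MYC than in NL, with a median log2 fold change of 2.02 and a range of 0.30 to 4.88, and 13 were above NL in c-MYC/FOXO1AAA, with a median of 1.72. None was called between the tumours, where the median was -0.05. The summed level of the 15 genes was 39.1 to 43.9 FPKM in NL, 122 to 134 FPKM in c-MYC and 122 to 139 FPKM in c-MYC/FOXO1AAA.

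Rad54l (chr4:116094264-116123690, minus strand, in GRCm38), whose product remodels DNA during strand exchange, was at 0.398, 0.0391, 0.378 and 0.0760 FPKM in NL, 4.47, 4.64 and 3.82 FPKM in c-MYC and 5.31, 7.07 and 5.01 FPKM in c-MYC/FOXO1AAA. Its NL values rest on 12, 0, 10 and 1 reads, and its log2 fold change of 4.88 ± 0.73 in c-MYC (adjusted p = 0.000297) carries the largest error of the list. Rad51ap1, an accessory factor of strand exchange, was at 4.07, 0.433, 2.4 and 1.3 FPKM in NL, 30.2, 23.9 and 33.4 FPKM in c-MYC and 28.4, 29.8 and 25.8 FPKM in c-MYC/FOXO1AAA, with a log2 fold change of 4.24 ± 0.59 in c-MYC (adjusted p = 0.000222). NL 1 was the highest NL library for both genes, and every tumour library was above it.

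The genes for the resection and unwinding of broken ends followed. Exo1, an exonuclease that also serves mismatch repair, was at 0.294, 0.0696, 0.212 and 0.144 FPKM in NL, 3.31, 3.98 and 4.23 FPKM in c-MYC and 3.83, 3.77 and 3.0 FPKM in c-MYC/FOXO1AAA, and its log2 fold change in c-MYC was 4.59 ± 0.42 (adjusted p = 7.57e-06). Blm, a helicase that dissolves joined DNA molecules, was at 2.68, 2.56, 1.96 and 1.89 FPKM in NL, 6.76, 8.03 and 7.49 FPKM in c-MYC and 4.47, 5.18 and 4.43 FPKM in c-MYC/FOXO1AAA. Its level was higher in c-MYC, by 1.72 ± 0.17 on the log2 scale (adjusted p = 8.24e-05), and in c-MYC/FOXO1AAA, by 1.06 ± 0.17 (adjusted p = 0.0155), a call that was lost without c-MYC/FOXO1AAA 2 (adjusted p = 0.0595) and with a pseudocount of 1, quantile normalization or a 2-fold threshold. The difference of -0.66 between the tumours was not called, with a 95% interval of -1.06 to -0.27. Rad50, part of the complex that tethers broken ends, was at 2.32, 2.31, 2.09 and 2.88 FPKM in NL, 5.61, 5.84 and 5.36 FPKM in c-MYC and 6.58, 7.12 and 5.68 FPKM in c-MYC/FOXO1AAA. Neither tumour group overlapped NL, with a log2 fold change of 1.23 ± 0.15 in c-MYC (adjusted p = 0.00195).

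The breast cancer susceptibility genes were higher too. Brca1 (chr11:101488764-101551955, minus strand) was at 0.845, 0.728, 1.19 and 0.594 FPKM in NL, 3.36, 4.84 and 3.9 FPKM in c-MYC and 3.53, 3.28 and 2.9 FPKM in c-MYC/FOXO1AAA, and its log2 fold change was 2.30 ± 0.25 (adjusted p = 8.47e-05) in c-MYC and 1.99 ± 0.25 (adjusted p = 0.000263) in c-MYC/FOXO1AAA. Brca2, which acts at the resected single strands, was at 0.838, 0.758, 0.839 and 0.583 FPKM in NL, 1.61, 1.93 and 1.96 FPKM in c-MYC and 1.96, 2.14 and 1.63 FPKM in c-MYC/FOXO1AAA, a log2 fold change of 1.29 ± 0.22 in c-MYC (adjusted p = 0.0118) and 1.35 ± 0.22 in c-MYC/FOXO1AAA (adjusted p = 0.00653). Every tumour library was above every NL library for both genes. The call for Brca2 in c-MYC was lost with a pseudocount of 1, a 2-fold threshold or the replicate block (adjusted p = 0.353, 0.279 and 0.0543). The call in c-MYC/FOXO1AAA was lost with a pseudocount of 1, quantile normalization or a 2-fold threshold (adjusted p = 0.195, 0.189 and 0.161). Of the remaining genes, Rad54b, Xrcc2, Xrcc3 and Rad52 were higher in both tumours over NL, with log2 fold changes in c-MYC of 2.99, 2.35, 2.02 and 1.05. Rad51b was called in c-MYC (1.28, adjusted p = 0.00912) and not in c-MYC/FOXO1AAA (0.84, adjusted p = 0.194). Rad51c, which acts in the same pathway, was at 0.237, 0.272, 0.316 and 0.143 FPKM in NL 1 to 4, 0.693, 0.461 and 0.444 FPKM in c-MYC and 1.61, 1.41 and 1.25 FPKM in c-MYC/FOXO1AAA, and was called over NL in c-MYC/FOXO1AAA (2.61 ± 0.33, adjusted p = 0.000127). Its difference between the tumours, 1.44 ± 0.35, had an adjusted p of 0.0573. Rad51d was not called in any comparison, with means of 12.3 ± 0.937 (SD, n = 4), 15.2 ± 0.682 (n = 3) and 17.8 ± 0.495 FPKM (n = 3) in NL, c-MYC and c-MYC/FOXO1AAA.

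Among the 10 Fanconi anaemia genes, 5 were higher in c-MYC than in NL (median log2 fold change 1.46) and 6 in c-MYC/FOXO1AAA (median 1.5), and none was called between the tumours. The largest changes were in Fanci and Fancd2, whose products form the clamp that is ubiquitinated at a crosslink. Fancd2 (chr6:113531682-113597017, plus strand) was at 0.219, 0.0985, 0.207 and 0.0417 FPKM in NL, 1.86, 2.22 and 2.29 FPKM in c-MYC and 2.7, 2.93 and 2.23 FPKM in c-MYC/FOXO1AAA. It rested on 12, 4, 10 and 1 reads in NL, and its log2 fold change was 4.18 ± 0.51 (adjusted p = 6.94e-05) in c-MYC. Fanci was at 0.326, 0.115, 0.220 and 0.0413 FPKM in NL, 2.63, 3.62 and 2.87 FPKM in c-MYC and 2.35, 2.34 and 1.39 FPKM in c-MYC/FOXO1AAA, from 9, 2, 5 and 0 reads in NL, with a log2 fold change of 4.47 ± 0.59 (adjusted p = 0.000124). Both partners were thus at or near the lowest detectable level in NL and were above it in each tumour library.

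The core complex, which ubiquitinates that clamp, was mixed. Fanca was at 5.33, 2.08, 2.63 and 2.68 FPKM in NL, 23.2, 27.1 and 26 FPKM in c-MYC and 18.4, 19.3 and 14.1 FPKM in c-MYC/FOXO1AAA, a log2 fold change of 3.09 ± 0.27 in c-MYC (adjusted p = 9.32e-06). Fancb, its partner in the core complex, was at 0.469, 0.292, 0.491 and 0.455 FPKM in NL, 2.46, 2.93 and 2.34 FPKM in c-MYC and 3.86, 3.55 and 2.82 FPKM in c-MYC/FOXO1AAA. Its log2 fold change was 2.62 ± 0.25 in c-MYC (adjusted p = 2.17e-05) and 3.02 ± 0.25 in c-MYC/FOXO1AAA (adjusted p = 3.7e-06), and the difference between the tumours was not called (adjusted p = 1). Fancm, a translocase that anchors the complex, was higher in c-MYC by 1.97 and in c-MYC/FOXO1AAA by 1.48 on the log2 scale. Fancg was called over NL in c-MYC/FOXO1AAA alone (1.52, adjusted p = 0.00118), and in c-MYC it had 0.94 with an adjusted p of 0.114. Fancc, Fance, Fancf and Fancl were not called in any comparison, with log2 fold changes in c-MYC of 0.54, 0.56, 0.76 and 0.40. The annotation places exons of a single other gene over 16.0% of the exon bases of Fanci (Polg), 10.5% of those of Fanca (Zfp276), 16.4% of those of Fancc, 15.0% of those of Fancf and 13.7% of those of Fancl. Whether counting used the strand is not stated, and how many reads of these genes come from the overlapping genes was not tested.

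Of the 8 damage checkpoint genes, 5 were higher in each tumour group over NL, with a median log2 fold change of 1.75 in both comparisons, and none was called between the tumours. Chek1 (chr9:36708482-36727065, minus strand), the kinase downstream of ATR, was at 0.728, 0.503, 0.457 and 0.199 FPKM in NL, 4.4, 5.39 and 4.68 FPKM in c-MYC and 6.81, 6.87 and 6.28 FPKM in c-MYC/FOXO1AAA. Its libraries did not overlap between any of the groups, and its log2 fold change over NL was 3.49 ± 0.36 (adjusted p = 2.47e-05) in c-MYC and 3.96 ± 0.36 (adjusted p = 5.44e-06) in c-MYC/FOXO1AAA. Chek2, the kinase downstream of ATM, was at 1.21, 0.518, 0.637 and 0.640 FPKM in NL, 4.48, 5.49 and 6.44 FPKM in c-MYC and 5.28, 4.35 and 3.48 FPKM in c-MYC/FOXO1AAA, a log2 fold change of 2.93 ± 0.29 in c-MYC (adjusted p = 2.52e-05). Rad9a and Rad1, which are parts of the sliding clamp that activates ATR, were higher in both tumour groups. Rad9a was at 3.86, 1.51, 1.56 and 1.69 FPKM in NL, 12.9, 7.94 and 8.25 FPKM in c-MYC and 11.8, 11 and 10.1 FPKM in c-MYC/FOXO1AAA, with log2 fold changes of 2.26 ± 0.31 (adjusted p = 0.000526) and 2.47 ± 0.31 (adjusted p = 0.000171). NL 1 stood above the other NL libraries for Rad9a. Rad1 had log2 fold changes of 2.13 and 2.21.

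Each of the apical kinases was called over NL in 1 of the tumour groups. Atr was at 1.89, 1.65, 1.87 and 1.68 FPKM in NL, 3.81, 5.49 and 4.66 FPKM in c-MYC and 3.48, 3.48 and 3.1 FPKM in c-MYC/FOXO1AAA, and it was called in c-MYC (1.38 ± 0.17, adjusted p = 0.00109) while its change in c-MYC/FOXO1AAA, 0.92 ± 0.17, had an adjusted p of 0.0617, or 0.0489 without c-MYC 2. Atm was at 1.28, 1.14, 0.857 and 0.954 FPKM in NL, 1.98, 2.44 and 2.29 FPKM in c-MYC and 2.93, 2.92 and 1.94 FPKM in c-MYC/FOXO1AAA. It was called in c-MYC/FOXO1AAA (1.29 ± 0.23, adjusted p = 0.0117), a call lost with a pseudocount of 1, quantile normalization or a 2-fold threshold (adjusted p = 0.132, 0.22 and 0.248). In c-MYC its change of 1.09 ± 0.23 had an adjusted p of 0.0531, which became 0.0335 without NL 1 and 0.0405 without c-MYC/FOXO1AAA 3. The difference between the tumours was 0.19 for Atm (95% interval -0.36 to 0.74) and -0.46 for Atr (95% interval -0.85 to -0.06), and neither was called. Rad17 and Rad9b were not called in any comparison. Rad18, the ubiquitin ligase that starts translesion synthesis and the only gene of that pathway found by the rule, was at 0.678, 0.622, 0.245 and 0.738 FPKM in NL, 3.07, 4.29 and 4.4 FPKM in c-MYC and 6.71, 7.0 and 5.43 FPKM in c-MYC/FOXO1AAA, with log2 fold changes of 2.88 ± 0.36 (adjusted p = 0.000134) and 3.59 ± 0.36 (adjusted p = 1.25e-05) over NL. Its tumour groups did not overlap, yet the difference of 0.71 between them was not called (adjusted p = 0.81).

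Mismatch repair had 3 of 5 genes higher in c-MYC and 2 of 5 in c-MYC/FOXO1AAA, with medians of 1.22 and 0.61. Msh6, which recognises single mismatches, was at 33.3, 23.7, 24.3 and 28.4 FPKM in NL, 62.8, 94.6 and 69.8 FPKM in c-MYC and 66.6, 85.4 and 75.3 FPKM in c-MYC/FOXO1AAA, a log2 fold change of 1.46 ± 0.17 in c-MYC (adjusted p = 0.000527) and 1.47 ± 0.17 in c-MYC/FOXO1AAA (adjusted p = 0.000351). Between the tumours Msh6 differed by 0.02, with a 95% interval of -0.38 to 0.41. Msh3, which recognises larger loops, and Mlh3 were not called in any comparison, with log2 fold changes in c-MYC of 0.36 and 0.17.

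In single-strand break repair, 3 of 4 genes were higher and 1 was lower in each tumour group over NL. Parp1 (chr1:180568924-180601254, plus strand), which senses the break and attaches ADP-ribose chains, was at 20.9, 17.4, 16.2 and 16.5 FPKM in NL, 62.2, 75.8 and 61.6 FPKM in c-MYC and 50.4, 59.3 and 42.4 FPKM in c-MYC/FOXO1AAA. The tumour libraries were all above NL, by 1.91 ± 0.14 (adjusted p = 6.91e-06) in c-MYC and 1.51 ± 0.14 (adjusted p = 7.24e-05) in c-MYC/FOXO1AAA on the log2 scale. Parp2 was at 6.04, 3.42, 5.25 and 5.48 FPKM in NL, 18.6, 16.5 and 20.3 FPKM in c-MYC and 16.5, 15.5 and 14.2 FPKM in c-MYC/FOXO1AAA, with log2 fold changes of 1.90 ± 0.18 (adjusted p = 5.11e-05) and 1.64 ± 0.18 (adjusted p = 0.000191). Xrcc1, the scaffold of the repair complex, was at 10.6, 7.64, 9.27 and 8.38 FPKM in NL, 34.6, 33.2 and 33.9 FPKM in c-MYC and 28.1, 35.9 and 30.7 FPKM in c-MYC/FOXO1AAA, with 1.93 ± 0.13 (adjusted p = 3.14e-06) and 1.82 ± 0.13 (adjusted p = 3.7e-06). Between the tumours Xrcc1 differed by -0.11, with a 95% interval of -0.41 to 0.19, and Parp1 by -0.40, with -0.73 to -0.07. Parp3 was the lower gene and is described with its family.

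**Figure D2:**
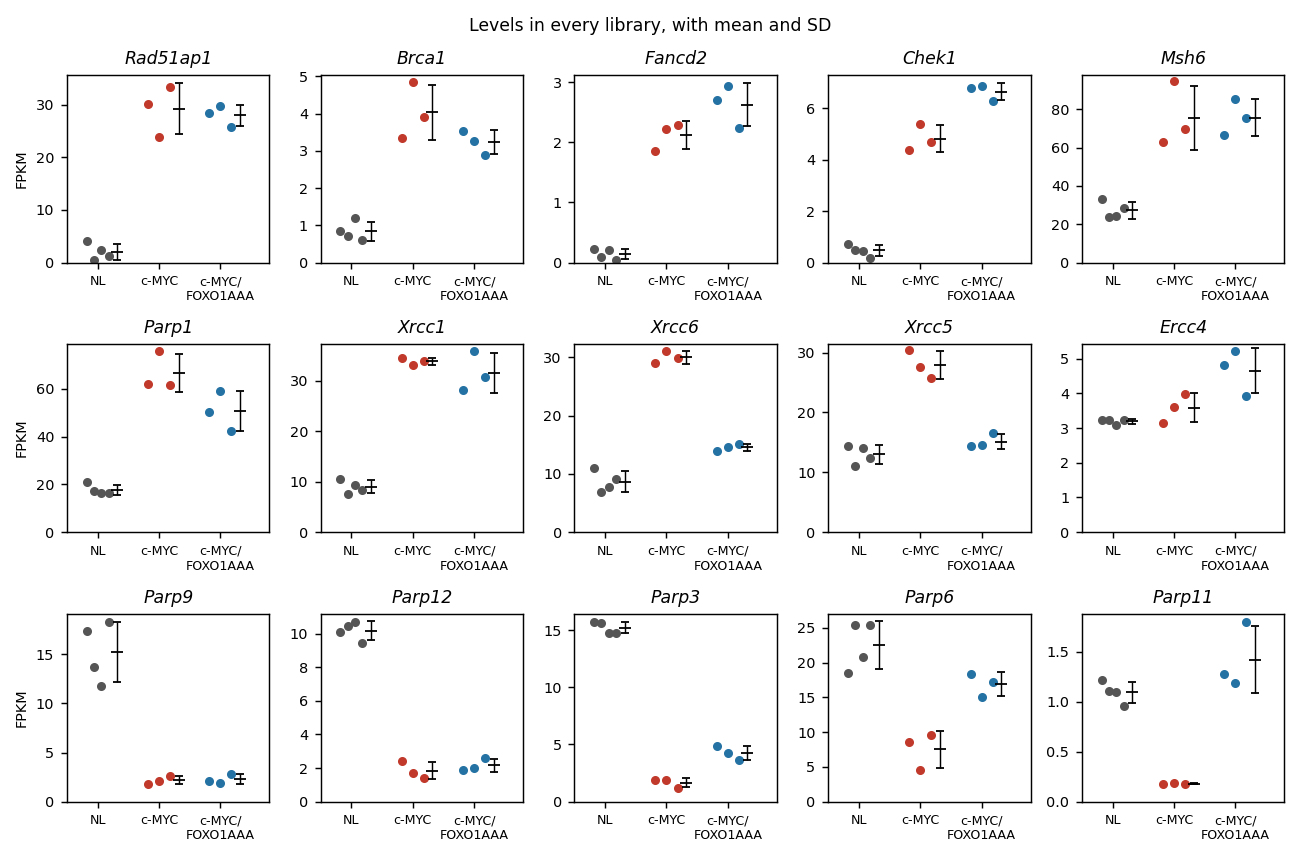
FPKM (vertical axis, from 0) of 15 repair genes in every library of NL (grey), c-MYC (red) and c-MYC/FOXO1AAA (blue), with the mean and SD of each group beside the points. Rad51ap1 was at 0.433 to 4.07 FPKM in NL, 23.9 to 33.4 FPKM in c-MYC and 25.8 to 29.8 FPKM in c-MYC/FOXO1AAA, Xrcc6 and Xrcc5 were highest in c-MYC, and Parp11 was lowest there.

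For the 3 non-homologous end joining genes found by the rule, calls over NL were made in c-MYC alone. Of these, Xrcc6 and Xrcc5 were higher in c-MYC than in NL, and none was called in c-MYC/FOXO1AAA versus NL. Among other end joining genes, Paxx and Trp53bp1 were called over NL in c-MYC/FOXO1AAA, as given below. Xrcc6 (chr15:81987835-82040085, plus strand), which encodes Ku70, was at 11, 6.86, 7.71 and 9.2 FPKM in NL, 29, 31.1 and 29.9 FPKM in c-MYC and 14, 14.6 and 15.1 FPKM in c-MYC/FOXO1AAA. It rose 3.51-fold in c-MYC over NL (1.81 ± 0.15 on the log2 scale, adjusted p = 1.73e-05). Between the tumours it was lower with FOXO1AAA, at -1.04 ± 0.16 on the log2 scale (adjusted p = 0.026), and its change of 0.77 ± 0.15 over NL was not called (adjusted p = 0.188), although it was without NL 1 (adjusted p = 0.029). Xrcc5, which encodes Ku80, was at 14.5, 11.1, 14.1 and 12.4 FPKM in NL, 30.5, 27.7 and 25.8 FPKM in c-MYC and 14.3, 14.5 and 16.5 FPKM in c-MYC/FOXO1AAA. It was 2.16-fold higher in c-MYC than in NL (adjusted p = 0.00171), and the c-MYC/FOXO1AAA libraries overlapped NL. Its difference between the tumours, -0.89 ± 0.13, missed the threshold (adjusted p = 0.0627) and passed it without NL 2 (0.0439) or c-MYC/FOXO1AAA 3 (0.0442). Xrcc4, the scaffold of the ligase, was at 5.96, 4.97, 5.53 and 5.5 FPKM in NL, 7.47, 6.56 and 6.62 FPKM in c-MYC and 3.63, 2.23 and 4.45 FPKM in c-MYC/FOXO1AAA, and its difference of -1.06 ± 0.22 between the tumours had an adjusted p of 0.0925.

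The call for Xrcc6 between the tumours held under 16 of 23 alternative settings. Leaving out c-MYC 2, c-MYC 3, c-MYC/FOXO1AAA 1 or c-MYC/FOXO1AAA 2 gave adjusted p-values of 0.0706, 0.0573, 0.0741 and 0.0587, with log2 fold changes of Xrcc6 between -1.07 and -1.02 over all libraries left out. Under an equal FPKM total the change was -0.87 (adjusted p = 0.12). The 3 genes together summed to 22.9 to 31.4 FPKM in NL, 62.3 to 66.9 FPKM in c-MYC and 31.3 to 36.1 FPKM in c-MYC/FOXO1AAA.

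Nucleotide excision repair had the smallest share of called genes among the lists in c-MYC. Of its 9 genes, 2 were higher in c-MYC (median 0.45) and 3 in c-MYC/FOXO1AAA (median 0.28), shares of 22.2% and 33.3% beside the 24.5% and 31.2% of all genes. Ercc1, a subunit of the nuclease that cuts on the upstream side of a lesion, was at 9.93, 9.02, 9.46 and 8.38 FPKM in NL, 20.9, 19.6 and 30.1 FPKM in c-MYC and 33.4, 37.6 and 30.9 FPKM in c-MYC/FOXO1AAA. Its log2 fold change was 1.33 ± 0.15 (adjusted p = 0.000743) in c-MYC and 1.88 ± 0.15 (adjusted p = 8.78e-06) in c-MYC/FOXO1AAA, and c-MYC 3 lay above the other c-MYC libraries. Ercc4, the catalytic partner of ERCC1, was at 3.23, 3.23, 3.09 and 3.24 FPKM in NL, 3.15, 3.62 and 3.99 FPKM in c-MYC and 4.83, 5.21 and 3.93 FPKM in c-MYC/FOXO1AAA and was not called, with 0.16 (95% interval -0.17 to 0.49) in c-MYC. Ercc2, a helicase of the transcription factor TFIIH, was at 3.93, 2.8, 2.5 and 3.01 FPKM in NL, 7.29, 7.98 and 7.72 FPKM in c-MYC and 7.23, 8.7 and 7.19 FPKM in c-MYC/FOXO1AAA, with 1.34 ± 0.16 (adjusted p = 0.00119) and 1.35 ± 0.16 (adjusted p = 0.000889), though exons of a single other gene cover 24.6% of its exon bases. The other helicase of TFIIH, Ercc3, had -0.10 (95% interval -0.30 to 0.11) in c-MYC and -0.20 (-0.40 to 0.01) in c-MYC/FOXO1AAA, which keeps its change below 1.5-fold in both. Ercc8, which acts where a polymerase has stalled, was at 2.07, 2.57, 1.95 and 3.06 FPKM in NL, 4.42, 4.61 and 4.44 FPKM in c-MYC and 6.48, 6.78 and 5.59 FPKM in c-MYC/FOXO1AAA. It was called in c-MYC/FOXO1AAA (1.40 ± 0.18, adjusted p = 0.000967) and not in c-MYC (0.92 ± 0.18, adjusted p = 0.0844), where it was called without NL 4 (0.0236). Rad23b, Ercc5 and Ercc6 were not called in any comparison, with changes in c-MYC of 0.46, 0.21 and 0.45.

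All 7 genes that were lower in c-MYC than in NL belonged to the PARP family, of which 11 genes were tested. These enzymes attach ADP-ribose to proteins, and many of them attach single units and act outside DNA repair. Parp1 and Parp2 were the higher ones, and Parp4 and Parp10 were not called in c-MYC, at -0.66 and -0.89 on the log2 scale. Parp3, listed with Parp1 and Parp2 in single-strand break repair, had the largest fall of all the repair genes in c-MYC, at -3.22. Parp10 was lower in c-MYC/FOXO1AAA (-1.35, adjusted p = 0.00115).

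In both kinds of tumour, 4 of the lower genes were called over NL and not between the tumours. Parp9 was at 17.4, 13.7, 11.8 and 18.2 FPKM in NL, 1.8, 2.11 and 2.61 FPKM in c-MYC and 2.15, 1.88 and 2.85 FPKM in c-MYC/FOXO1AAA, a log2 fold change of -2.81 ± 0.21 in c-MYC (adjusted p = 3.35e-06) and -2.73 ± 0.21 in c-MYC/FOXO1AAA (adjusted p = 2.63e-06). Parp12 was at 10.1, 10.5, 10.7 and 9.42 FPKM in NL, 2.4, 1.7 and 1.44 FPKM in c-MYC and 1.87, 1.98 and 2.61 FPKM in c-MYC/FOXO1AAA, with -2.50 ± 0.19 (adjusted p = 5.58e-06) and -2.25 ± 0.19 (adjusted p = 1.03e-05). Parp9, Parp12 and Parp14 are known as genes that interferon induces. Parp14 was at 4.57, 4.28, 3.44 and 4.25 FPKM in NL, 0.905, 0.932 and 0.860 FPKM in c-MYC and 0.377, 0.652 and 0.614 FPKM in c-MYC/FOXO1AAA, with -2.19 ± 0.24 (adjusted p = 9.45e-05) and -2.95 ± 0.24 (adjusted p = 3.5e-06). Parp16, an enzyme of the endoplasmic reticulum membrane, was at 28.6, 33.8, 27.4 and 26.4 FPKM in NL, 8.62, 9.03 and 7.61 FPKM in c-MYC and 5.83, 5.71 and 5.37 FPKM in c-MYC/FOXO1AAA, with -1.78 ± 0.11 (adjusted p = 3.1e-06) and -2.36 ± 0.11 (adjusted p = 9.77e-08). For each of the 4 genes the lowest NL library was above the highest tumour library. The hepatocyte, macrophage and endothelial marker sums given above were also below NL in each tumour library, and their part in these values was not tested.

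The other 3 lower genes differed between the tumours, with higher levels where FOXO1AAA was present. Parp11 (chr6:127446840-127494261, plus strand), an enzyme that attaches single ADP-ribose units, was at 1.22, 1.11, 1.1 and 0.954 FPKM in NL, 0.177, 0.187 and 0.177 FPKM in c-MYC and 1.28, 1.18 and 1.8 FPKM in c-MYC/FOXO1AAA. It was 6.04-fold lower in c-MYC than in NL (-2.59 ± 0.24 on the log2 scale, adjusted p = 2.11e-05). In the c-MYC/FOXO1AAA tumours it was 7.74-fold above the c-MYC tumours (2.95 ± 0.26, adjusted p = 2.12e-05). There its libraries overlapped NL and it was not called over NL (0.36, adjusted p = 1). The call between the tumours held in all 22 alternatives that tested it, and the call in c-MYC over NL was lost with a pseudocount of 1 (adjusted p = 0.0591). Parp3 (chr9:106470322-106476949, minus strand), which responds to double-strand breaks, was at 15.7, 15.6, 14.8 and 14.8 FPKM in NL, 1.9, 1.86 and 1.23 FPKM in c-MYC and 4.86, 4.25 and 3.6 FPKM in c-MYC/FOXO1AAA. Its libraries did not overlap between any of the groups, with -3.22 ± 0.17 (adjusted p = 2.09e-07) in c-MYC and -1.85 ± 0.17 (adjusted p = 3.48e-05) in c-MYC/FOXO1AAA over NL and 1.37 ± 0.19 (adjusted p = 0.00388) between the tumours. The last of these was not called with quantile normalization or a 2-fold threshold, and the call in c-MYC/FOXO1AAA over NL was lost with an equal FPKM total (-0.76, adjusted p = 0.236).

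Parp6 (chr9:59617284-59650285, plus strand), another enzyme that attaches single units, was at 18.6, 25.4, 20.9 and 25.4 FPKM in NL, 8.56, 4.5 and 9.55 FPKM in c-MYC and 18.4, 15 and 17.1 FPKM in c-MYC/FOXO1AAA. In c-MYC it fell below NL (-1.64 ± 0.23, adjusted p = 0.00157), a call lost with an equal FPKM total (adjusted p = 0.391), and c-MYC 2 was the lowest library. Its difference between the tumours, 1.23 ± 0.25, had an adjusted p of 0.0483 and stayed called under 8 of 23 alternatives. Without c-MYC 2 it was 0.89 (adjusted p = 0.142), and leaving out NL 1, NL 2, NL 3 or NL 4 gave adjusted p-values of 0.0504, 0.0568, 0.0631 and 0.0589. Without c-MYC/FOXO1AAA 1, 2 or 3 the adjusted p was 0.13, 0.0614 and 0.0941. The length that the authors used for Parp6 is 816 bases, under 1/2 of its longest transcript.

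The symbols also matched 5 genes that were not placed in a repair pathway here, which does not exclude a part in repair. Ercc6l, a translocase of mitotic chromosomes, was at 0.330, 0.0623, 0.177 and 0.127 FPKM in NL, 4.25, 5.34 and 4.78 FPKM in c-MYC and 3.21, 3.41 and 2.97 FPKM in c-MYC/FOXO1AAA, with log2 fold changes of 5.02 ± 0.46 (adjusted p = 6.35e-06) and 4.44 ± 0.46 (adjusted p = 1.2e-05) over NL. Rad21, a subunit of the cohesin ring, was at 20.2, 17.4, 17.9 and 18.4 FPKM in NL, 40.1, 46.1 and 42.1 FPKM in c-MYC and 43.1, 40.5 and 36.1 FPKM in c-MYC/FOXO1AAA, with 1.21 ± 0.10 (adjusted p = 0.000133) and 1.11 ± 0.10 (adjusted p = 0.000356). Ercc6l2, Rad54l2 and Msh5 were not called in any comparison.

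**Figure D3:**
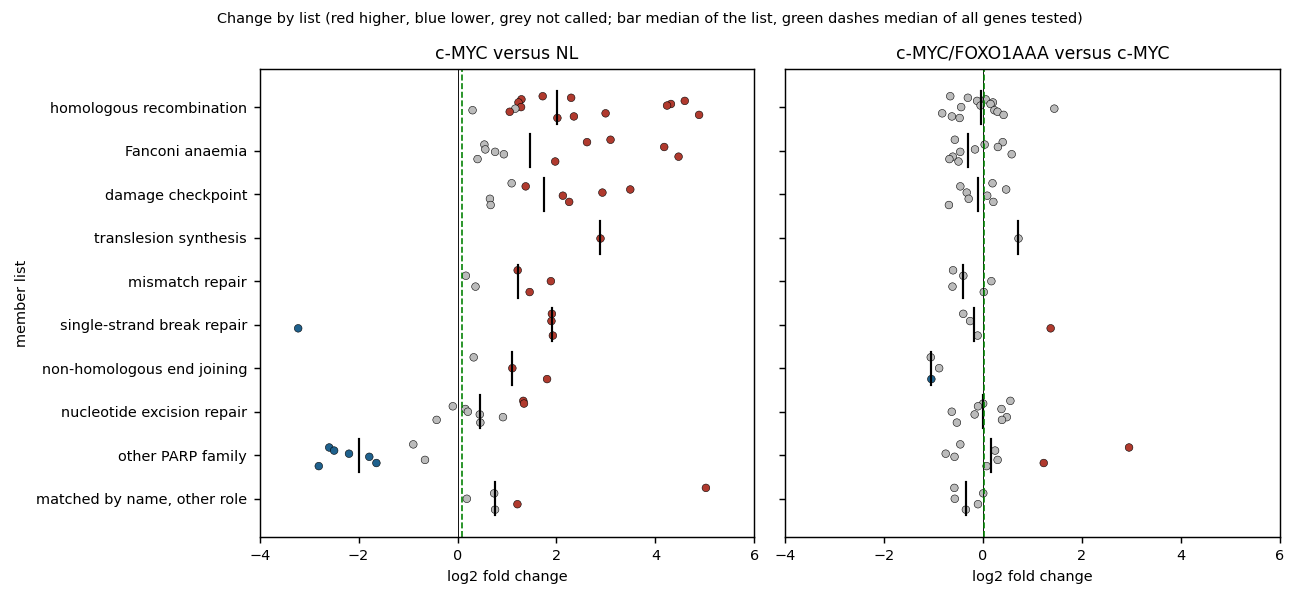
Log2 fold change (horizontal axis) of each tested gene by pathway (vertical axis) in c-MYC versus NL on the left and c-MYC/FOXO1AAA versus c-MYC on the right, with red for genes called higher, blue for genes called lower and grey for genes not called. In c-MYC the medians (black bars) run from -1.99 for the other PARP genes to 2.88 for the single translesion synthesis gene, while on the right most points lie near the median of all genes (green dashes).

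Set side by side, 86.7% of the homologous recombination genes, 62.5% of the checkpoint genes, 60% of the mismatch repair genes, 50% of the Fanconi anaemia genes and 22.2% of the nucleotide excision repair genes were higher in c-MYC than in NL, beside the 24.5% of all genes. Single-strand break repair had 75% of 4 genes and end joining 66.7% of 3. The lists hold 3 to 15 genes each, they were chosen with earlier results of these data known, and the differences between them were not tested. These shares include the genes that passed the filter through tumour libraries alone. Called higher in c-MYC among these were Brca2, Exo1, Rad54b and Rad54l of homologous recombination. Fancb, Fancd2, Fanci and Fancm of the Fanconi anaemia pathway and Chek1 of the checkpoint were others. Within the groups, the repair genes had a median SD of 0.25 on the log2 scale in NL, 0.15 in c-MYC and 0.17 in c-MYC/FOXO1AAA, beside 0.19, 0.21 and 0.20 for all genes.

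Between the tumours, 64 of the 68 genes were not called, and 75% of the 4 called genes were higher with FOXO1AAA, beside 55.5% of all called genes. The share of the repair genes was 100% with an equal FPKM total and 40% with an equal median. It was 33.3% with quantile normalization and 29.2% with no fold threshold. For all called genes these settings gave 63.6%, 51.2%, 48.5% and 51.8% in the same order. For 38 of the 64 genes the 95% interval of the difference lay within 2-fold in either direction, and for the rest it reached beyond 2-fold, so differences of that size remain possible there. Of the 31 genes higher in both tumour groups over NL, 15 had such an interval within 2-fold. Rad54l had the widest interval in the plot of differences between the tumours, -1.31 to 2.14.

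**Figure D4:**
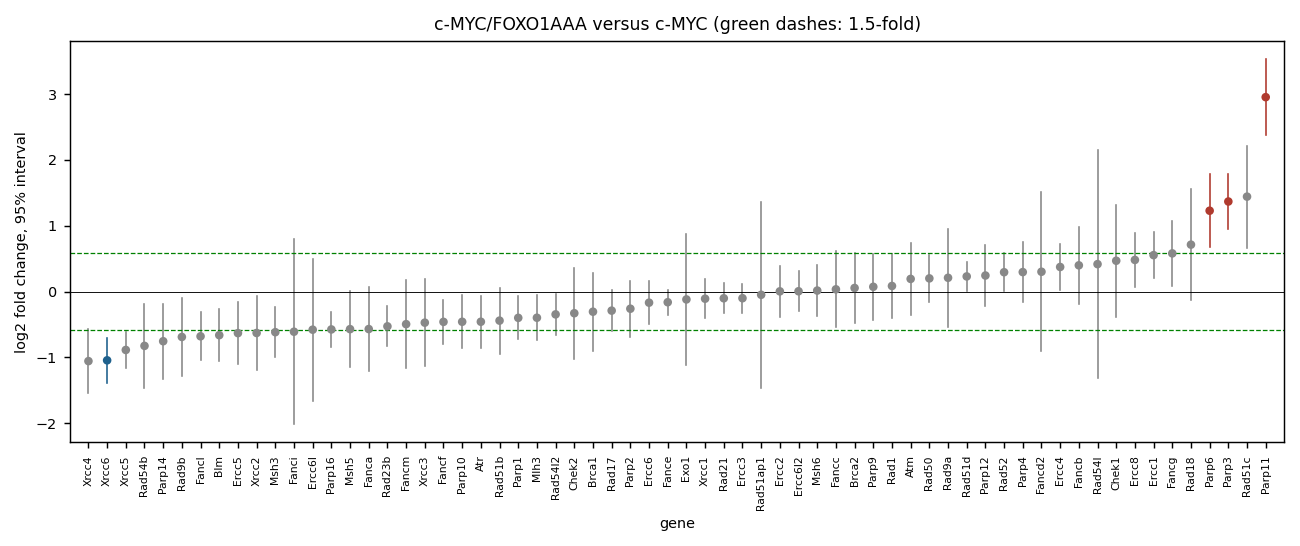
Log2 fold change with its 95% interval (vertical axis) for 64 of the 68 genes (horizontal axis, in order) in c-MYC/FOXO1AAA versus c-MYC. Parp11, Parp3 and Parp6 (red) were called higher and Xrcc6 (blue) lower, at 2.95, 1.37, 1.23 and -1.04. Rad51c, next below Parp11, and Xrcc4, at the lower end, were not called.

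The other genes of the repair pathways, 103 in a list that holds none of the 69, were tested for comparison, and 102 passed the filter. In c-MYC versus NL, 51 were higher and 2 lower, with a median log2 fold change of 0.98, beside 24.5% and 23.6% of all genes. In c-MYC/FOXO1AAA versus NL, 49 were higher and 3 lower (median 0.94), beside 31.2% and 26.6% of all genes. Between the tumours 1 was higher and 1 lower (median 0.03), beside 15.9% and 12.7%. By pathway, the genes higher in c-MYC were 15 of 23 in homologous recombination, 9 of 13 in the checkpoint, 11 of 21 in base excision repair and 5 of 15 in nucleotide excision repair. They were 3 of 8 in translesion synthesis, 3 of 7 in the Fanconi anaemia pathway, 2 of 3 in mismatch repair and 2 of 2 in polymerase theta end joining. In non-homologous end joining 1 of 7 was higher and 1 lower, and in direct reversal 0 of 3 were higher and 1 was lower. The shares higher were 33.3% in nucleotide excision repair and 37.5% in translesion synthesis, not far above the 24.5% of all genes.

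The largest changes in c-MYC versus NL included Fignl1 (4.74, adjusted p = 1.86e-06) and Eme1 (4.61, adjusted p = 3.08e-06) of homologous recombination, and Ube2t (3.39) and Faap24 (3.38) of the Fanconi anaemia pathway. Bard1, the partner of BRCA1, had 4.71 in c-MYC/FOXO1AAA over NL (adjusted p = 4.73e-05). Clspn, which couples ATR to CHEK1, was at 0.213 ± 0.157 FPKM in NL and 4.24 ± 0.633 FPKM in c-MYC (SD, n = 4 and 3), a log2 fold change of 4.88, and H2afx, the histone marked at breaks, had 2.73. Both genes of polymerase theta end joining were higher, Polq by 4.12 and Lig3 by 1.41. In base excision repair the leading genes were Neil3 (4.02) and Lig1 (3.74), in mismatch repair Pms2 (2.66) and Pcna (1.75), in translesion synthesis Polh (1.71) and Rev1 (1.23), and in nucleotide excision repair Cdk7 (1.53) and Ddb1 (1.30). Hltf of translesion synthesis (1.16) and Mnat1 of nucleotide excision repair (1.43) were named from c-MYC/FOXO1AAA versus NL.

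The genes that were lower than NL or differed between the tumours came from several pathways. Paxx, an end joining factor that stabilises Ku at the break, was at 32.9, 33.9, 32.5 and 25.3 FPKM in NL, 8.12, 5.91 and 6.95 FPKM in c-MYC and 5.95, 6.13 and 6.67 FPKM in c-MYC/FOXO1AAA, with -2.16 ± 0.14 on the log2 scale (adjusted p = 1.93e-06) in c-MYC. Dclre1c, the nuclease Artemis, was at 3.75, 1.81, 2.58 and 1.67 FPKM in NL, 6.76, 5.49 and 6.77 FPKM in c-MYC and 2.6, 2.58 and 1.93 FPKM in c-MYC/FOXO1AAA. It was above NL in c-MYC (1.44 ± 0.27, adjusted p = 0.0116). Between the tumours it was lower with FOXO1AAA (-1.43 ± 0.29, adjusted p = 0.0282). Trp53bp1, which favours end joining over resection, was called over NL in c-MYC/FOXO1AAA (2.27, adjusted p = 7.92e-05) and not in c-MYC (1.14, adjusted p = 0.0549). The gene called higher between the tumours was Neil1, a glycosylase, at 5.26, 4.08, 4.97 and 4.68 FPKM in NL, 3.8, 2.8 and 3.0 FPKM in c-MYC and 7.38, 7.41 and 6.15 FPKM in c-MYC/FOXO1AAA (1.13 ± 0.17, adjusted p = 0.0153). Mgmt, which reverses alkylation of guanine directly, was at 18.2, 17.6, 18.7 and 16.9 FPKM in NL, 3.62, 2.37 and 2.54 FPKM in c-MYC and 3.28, 3.12 and 3.55 FPKM in c-MYC/FOXO1AAA, with -2.67 ± 0.15 on the log2 scale in c-MYC (adjusted p = 4.3e-07). Over NL in c-MYC/FOXO1AAA, Paxx, Mgmt and Xpa were lower, at -2.31, -2.43 and -1.32, where Xpa, a damage sensor of nucleotide excision repair, is named after its value was seen.

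**Figure D5:**
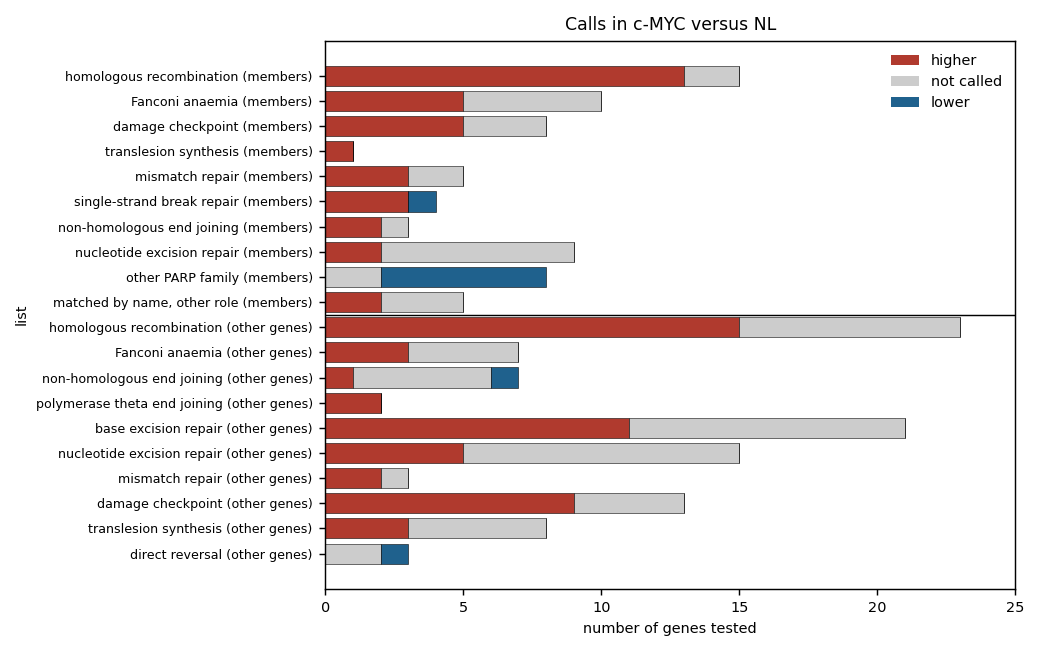
Number of genes tested (horizontal axis) that were higher (red), not called (grey) or lower (blue) in c-MYC versus NL for each list (vertical axis), with the 69 genes above the line and the other repair genes below it. Homologous recombination has 13 of 15 higher above the line and 15 of 23 below it. Nucleotide excision repair has 2 of 9 and 5 of 15, beside 24.5% of all genes.

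Genes that p53 activates after damage were measured beside the repair genes. Of 10 such genes, 7 rose and 1, Trp53inp1, fell in c-MYC over NL, beside 24.5% and 23.6% of all genes. In c-MYC/FOXO1AAA over NL 7 rose, beside 31.2%, and between the tumours 4 were higher, beside 15.9%. The 4 were Phlda3 (2.53, adjusted p = 4.64e-05), Eda2r (3.53, adjusted p = 0.000424), Zmat3 (2.14, adjusted p = 0.000113) and Trp53inp1 (2.05, adjusted p = 0.00013). Cdkn1a, which arrests the cell cycle, was at 2.1, 0.727, 1.29 and 1.11 FPKM in NL, 26.6, 18.4 and 28.4 FPKM in c-MYC and 49.3, 42.7 and 50.4 FPKM in c-MYC/FOXO1AAA, and its difference of 0.98 between the tumours was not called (adjusted p = 0.328). The summed level of the 10 genes was 100 to 147 FPKM in NL, 285 to 309 FPKM in c-MYC and 400 to 445 FPKM in c-MYC/FOXO1AAA.

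For 68 of the 69 genes the length behind the FPKM equals that of an annotated transcript, and for 15 of them it is under 1/2 of the longest, such as 668 bases of 4485 for Fanca, 578 of 4251 for Msh6 and 487 of 3553 for Rad52. Levels were therefore compared between groups within a gene and not between genes. For 10 genes, exons of a single other gene cover over 10% of the exon bases, among them Rad54b (35.8%) and Ercc2 (24.6%). Where several genes overlap, only the largest overlap was counted.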

How the data were processed

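RNA was sequenced from 10 mouse liver libraries. The authors deposited log2 FPKM values per gene, with a prior count added and the libraries scaled by factors of 0.649 to 1.5. Per the submitters' notes, FastQC 0.11.7 and GRCm38 were used, and the aligner and counter are not given in the sources used here. Whole reads could be recovered from the deposited log2 values for 99.0% of genes. Genes with 1 FPKM in at least 3 libraries were kept (14017), and limma 3.58.1 (treat, 1.5-fold, trend and robust, R 4.3.3) was fitted to all 10 libraries, with Benjamini-Hochberg adjustment over all genes kept. The fits were tested on simulated data. Coordinates follow GENCODE M21. Named genes were a fixed core plus, per list and comparison, up to 3 called genes with the largest change whose groups did not overlap and whose mean reached 1 FPKM, and up to 2 per list of the other repair genes. Members and lists were chosen with earlier results of these data known. Same-numbered replicates did not deviate together (correlations -0.04 to 0.03), so numbers were not treated as pairs. Alternatives changed the pseudocount, filter, scaling, threshold, model and the libraries left out. Some genes enter the counts, medians and sums and are not reported here by name.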

Additional observations from a re-analysis of the deposited data

Results flagged for a closer look

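In NL, a group of 4 libraries, 3 of the 38 named genes had 1 library far from the others by Dixon's criterion, and chance alone marks about 1 in 20 groups. Fancb was at 0.292 FPKM in NL 2 and at 0.455 to 0.491 FPKM in the other NL libraries. Rad18 was at 0.245 FPKM in NL 3 and at 0.622 to 0.738 FPKM in the others. Rad9a was at 3.86 FPKM in NL 1 and at 1.51 to 1.69 FPKM in the others. NL 1 also had the highest NL sums of the proliferation markers and of the 5 hepatocyte markers, and their part in this value was not tested.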

How the results depend on the processing

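With a mean FPKM of at least 5, 34 repair genes were tested and 17 were higher in c-MYC and 15 in c-MYC/FOXO1AAA over NL, with 1 higher between the tumours. Of all genes tested at that level, 25.9%, 28.03% and 11.1% were called higher in the same order. With an equal FPKM total, 58 and 53 were higher over NL and 0 lower between the tumours, where 10.6% of all genes were lower. Between the tumours, 7 of the 68 repair genes were higher and 17 lower with no fold threshold, beside 28.4% and 26.4% of all genes. With a threshold of 2-fold, 1 was higher and 0 lower, beside 11.5% and 7.86% of all genes. The lower count was 3 with an equal median, 4 with quantile normalization, 3 with voom on recovered reads and 0 with the replicate block, which changed the other counts by at most 1. Of all genes, 14.3% were lower with an equal median, 15.4% with quantile normalization and 13.8% with voom. Leaving out 1 library in turn gave 36 to 38 higher and 7 to 8 lower genes in c-MYC, 34 to 36 higher and 6 lower in c-MYC/FOXO1AAA, and 2 to 4 higher and 0 to 3 lower between the tumours, with 0 lower without c-MYC 2, c-MYC 3, c-MYC/FOXO1AAA 1 or c-MYC/FOXO1AAA 2 and 3 lower without c-MYC/FOXO1AAA 3. Some differences between the tumours that were not called changed sign. With quantile normalization Atm was at -0.24, Brca2 at -0.45, Ercc2 at -0.089, Fancd2 at -0.13, Parp12 at -0.23, Parp9 at -0.37, Rad21 at 0.11, Rad51ap1 at 0.12 and Xrcc1 at 0.058. With an equal median Brca2 was at -0.031, Ercc2 at -0.082, Msh6 at -0.070 and Parp9 at -0.013. With an equal FPKM total Exo1 was at 0.051, Rad21 at 0.069, Rad51ap1 at 0.12 and Xrcc1 at 0.062. Over NL, Parp11 in c-MYC/FOXO1AAA was at -0.18 with quantile normalization and Parp6 at 0.69 with an equal FPKM total. Leaving out 1 library gave -0.036 to 0.17 for Brca2, -0.087 to 0.051 for Ercc2, -0.11 to 0.19 for Msh6, -0.095 to 0.21 for Parp9 and -0.19 to 0.056 for Rad51ap1. The 2-fold threshold also ended calls over NL for Atr, Ercc1, Rad50 and Xrcc5 in c-MYC, Ercc8 in c-MYC/FOXO1AAA, and Ercc2 and Rad21 in both. The causes were not tested. Over all alternatives, 2453 log2 fold changes of named genes kept their direction and side of the threshold, 50 lost the call, 35 gained it and 30 changed sign. Depth limits the NL values of Rad54l, Rad51ap1, Fancd2, Fanci and Ercc6l, each with a library of at most 3 reads.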
